A study of Homo sapiens with 12 samples.

Results

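NR3C1, the glucocorticoid receptor, was mapped on chromatin in 2 lines of prednisolone-treated SUPT-1 cells, and the list of bound regions of 1 line was compared with that of the other. SUPT-1 is a long-established line from a human T-cell acute lymphoblastic leukaemia. Both lines were selected with puromycin, carried a doxycycline-inducible construct and had been induced with doxycycline. The WT line overexpressed wild-type STAT5B and the N642H line overexpressed the STAT5B N642H mutant. Both had received prednisolone, a synthetic glucocorticoid, at 250 µg per ml for 16 hours. The labels give neither the amount of induced protein nor whether a line was 1 clone. Regions on chromosomes 1 to 22 and X were used, 994 in the WT list and 2888 in the N642H list, together 3882 of the 11904 regions in the 8 ChIP lists of the series. A region was shared when it overlapped a region of the other list by at least 1 bp, and line-specific when it did not. Each line had 1 NR3C1 library with prednisolone, so no value has a replicate error and no difference between the lines was tested. Intervals are exact Clopper-Pearson 95% intervals and reflect only the counting of regions within these libraries.

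The glucocorticoid receptor is kept in the cytoplasm by chaperones until a steroid binds it. It then enters the nucleus and binds palindromic response elements made of a pair of AGAACA-type hexamers, often far from promoters. In lymphoid cells it induces genes of growth arrest and cell death, which is why glucocorticoids are used against lymphoid leukaemia. STAT5B is a transcription factor activated by cytokine receptors through JAK kinases, it binds TTCNNNGAA elements, and N642H is an activating mutation found in T-cell neoplasms.

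The sequences below show a promoter with STAT5-type and one with receptor-type words at N642H-only regions, and one at a shared region, all chosen after their values were seen. They are the 250 bases before a start site in the RefSeq promoter table of GRCh38.p14, written 5′ to 3′ on the gene's strand, with TTCNNNGAA, AGAACA or TGTTCT in capitals. The promoter of CISH, a cytokine feedback inhibitor and classical STAT5 target (gene ID 1154), is at chr3:50611775-50612024 on the minus strand. That of RAG2, a subunit of the V(D)J recombinase (gene ID 5897), is at chr11:36598237-36598486 on the minus strand. Both stretches had an NR3C1 region in the N642H line only, although RAG2 also had a shared region within 20 kb (fold 10.5 in WT and 23.1 in N642H). The promoter of RFESD, a gene of an iron-sulphur domain protein (gene ID 317671), at chr5:95646629-95646878 on the plus strand, had one in both lines.
CISH: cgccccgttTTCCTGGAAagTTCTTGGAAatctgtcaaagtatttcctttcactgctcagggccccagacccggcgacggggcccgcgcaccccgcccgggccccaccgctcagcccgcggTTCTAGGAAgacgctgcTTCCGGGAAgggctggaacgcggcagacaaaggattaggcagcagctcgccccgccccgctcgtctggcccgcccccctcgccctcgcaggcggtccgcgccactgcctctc
RAG2: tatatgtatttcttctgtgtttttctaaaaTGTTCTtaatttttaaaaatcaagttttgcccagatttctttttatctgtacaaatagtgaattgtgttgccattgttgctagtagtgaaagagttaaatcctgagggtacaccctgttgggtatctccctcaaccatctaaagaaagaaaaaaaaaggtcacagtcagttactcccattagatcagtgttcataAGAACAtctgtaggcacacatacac
RFESD: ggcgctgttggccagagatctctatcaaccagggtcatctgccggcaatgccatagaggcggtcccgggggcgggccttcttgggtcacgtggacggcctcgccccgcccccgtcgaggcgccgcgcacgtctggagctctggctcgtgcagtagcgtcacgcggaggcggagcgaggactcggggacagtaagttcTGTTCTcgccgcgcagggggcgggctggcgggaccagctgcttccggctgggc

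CISH had 4 copies of TTCNNNGAA, at positions 10, 21, 122 and 139 counted from the 5′ end of the stretch, and no AGAACA or TGTTCT. All 4 lay inside the N642H-only NR3C1 region (chromosome 3, 50611807 to 50612083, fold 6.41, −log10 q 7.89), whose summit was 120 bp from the start site. The fold is the authors' ratio of ChIP pileup to local background at the summit, and q is their adjusted p for the peak. The same stretch carried a STAT5B region in N642H cells with and without prednisolone and none in WT cells. At RAG2 the N642H-only region (fold 10.1) covered TGTTCT at position 31 and AGAACA at position 226, and no STAT5B list had a region there. At RFESD the fold was 23.3 in the WT line and 28.0 in the N642H line, and the region covered 1 TGTTCT, at position 198, and no TTCNNNGAA. An untreated N642H STAT5B region lay there too.

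Of the 21616 promoter windows of 300 bp in the RefSeq table (250 before and 50 after a start site), 217 were overlapped by an N642H-only region, 39 by a shared N642H region and 9 by a WT-only region. TTCNNNGAA, which reads the same on both strands, was in 6.81% of all windows, in 23 of the 217 windows at N642H-only regions (10.6%, 6.84 to 15.5), in 2 of 39 at shared regions and in 0 of 9 at WT-only regions. Only 5 of the 21616 windows held 4 or more copies, and they belonged to 4 genes. Those at CISH and at BCL6, a transcriptional repressor of lymphocytes, lay at N642H-only NR3C1 regions. Those at ZNF112 and ZNF225, both zinc finger genes, had no N642H region. The BCL6 window (gene ID 604) was overlapped by a region at chromosome 3, 187745335 to 187745961 (fold 11.9), with its summit 358 bp from the start site. That BCL6 region was also in both STAT5B lists of the N642H line and in the untreated STAT5B list of the WT line. AGAACA or TGTTCT, which are each other's reverse complement and were searched on both strands, was in 11.7% of all windows, in 29 of 217 at N642H-only regions (13.4%, 9.14 to 18.6) and in 4 of 39 at shared regions. The full palindrome, AGAACA and TGTTCT with any 3 bases between them, was in 0 windows. Some windows of 1 gene overlap each other, so the 217 windows belonged to 206 genes. Windows of neighbouring genes on opposite strands can overlap too. Those of RGS5 and NUF2 hold the same TTCNNNGAA, which was counted in both. The intervals take windows as independent, so they are too narrow, and no excess over all windows was tested.

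Of the 994 WT regions, 99 (9.96%, 8.17 to 11.99) were WT-only, and of the 2888 N642H regions, 2001 (69.3%, 67.6 to 71.0) were N642H-only. The 897 overlaps included 873 in which 1 WT region met 1 N642H region and no other. A single N642H region spanned 2 WT regions in 10 cases, as at the FKBP5 start, where an N642H region of 1233 bp covered WT regions of 663 and 230 bp. The product of FKBP5 is an HSP90 co-chaperone that holds back the receptor, and the gene is among its best known targets. A WT region spanned 2 N642H regions in 2 cases. Sharing followed strength. Each list was cut by −log10 q into 5 bins of equal size. In the strongest WT bin all 198 regions were shared, and the share was 99.5%, 93.0%, 83.9% and 73.9% in the following bins. In the N642H list the share was 70.9% (67.0 to 74.6) in the strongest bin and then 45.3%, 21.5%, 9.86% and 6.06%.

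**Figure D1:**
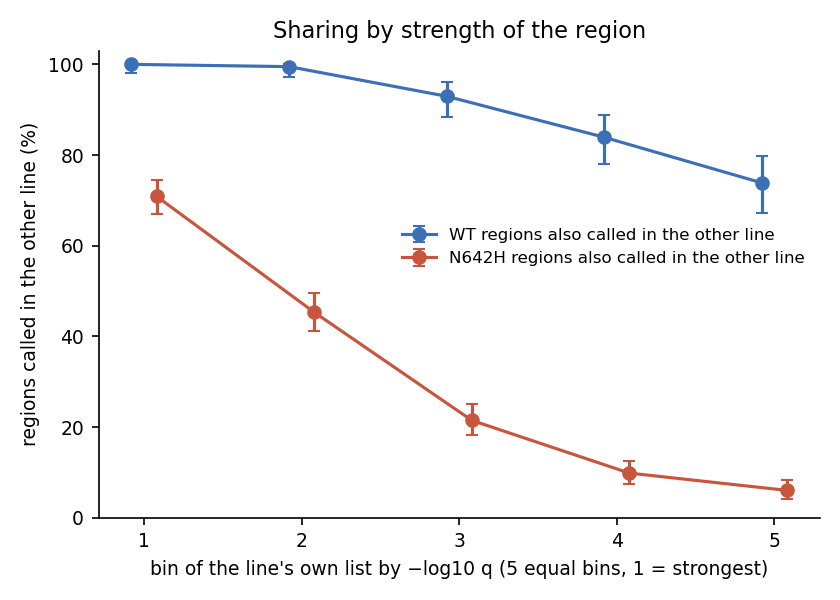
Percent of NR3C1 regions also called in the other line, by bin of each line's own list on −log10 q (1 = strongest), with exact 95% intervals. All 198 regions of the strongest WT bin were called in the N642H line, while the N642H share falls from 70.9% to 6.06%.

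The libraries differed in ways that touch these counts. ChIP depth recovered from the deposited values was 7.54 tags per kb in the WT library and 4.79 in the N642H library (13.6 and 9.90 when the most frequent background was used in place of the lowest), where the background per tag was divided by the width of the narrowest peak, 82 bp in WT and 137 bp in N642H, as the fragment length. The order of the depths rests on that width, since the genome background itself was 0.553 in WT and 0.656 in N642H. High-background regions, where the local background reached 10 times the genome-wide one, numbered 1 in WT and 58 in N642H, of which 57 were N642H-only. In SUPT-1 these lists carry no transcript levels, so the cell line could not be checked on expression. Of the T-lineage list below, 23 of 36 genes had an N642H region beside them and 10 had a WT region. Markers of other blood cells had an N642H region at 3 of 18, and genes of non-blood tissues at 0 of 16. Over all protein-coding genes the N642H share was 11.1%, and with so few genes 0 of 16 is not far from it.

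Regions were wider in the N642H line, and shared regions were wider than line-specific ones in both. The median width was 184 bp for shared and 105 bp for line-specific WT regions, against 287 bp for shared and 194 bp for line-specific N642H regions. Over the 873 one-to-one pairs the median was 185 bp in WT and 286 bp in N642H, the N642H region was the wider in 769 pairs (88.1%), and the median of the differences was 90 bp. Regions of at least 500 bp made up 87 of the 887 shared N642H regions (9.81%, 7.93 to 11.96), 35 of the 2001 N642H-only regions (1.75%, 1.22 to 2.42), 25 of the 895 shared WT regions and 0 of the 99 WT-only regions, an upper bound of 3.66%. Width followed strength. Within the strongest N642H bin the medians were 349 bp for shared and 324 bp for N642H-only regions, in the next 256 and 237.5 bp, and in the weakest 176 and 169 bp. How much of the width gap between the lines goes with fragment length, for which the narrowest peaks stand here, was not tested.

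**Figure D2:**
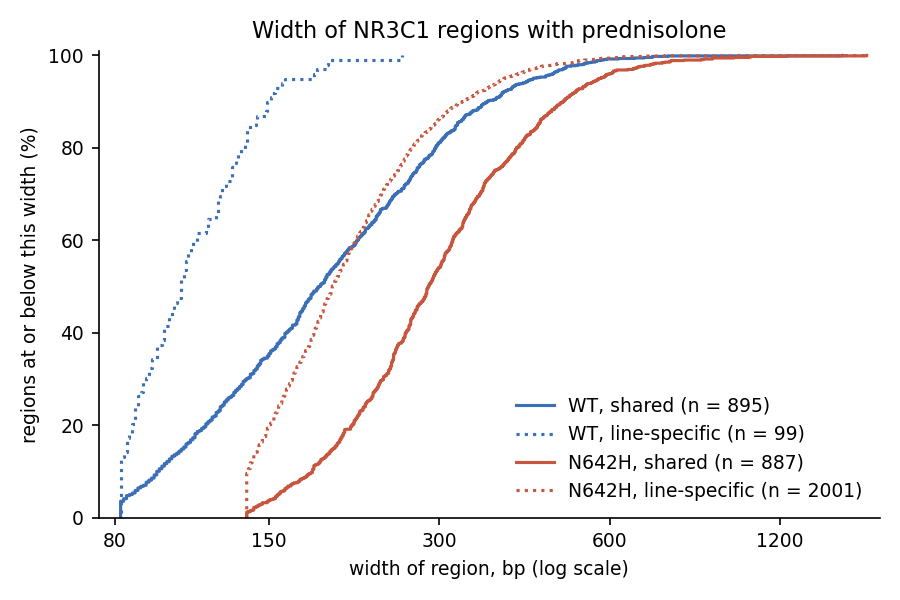
Cumulative percent of regions by width in bp (log axis) for the shared (solid) and line-specific (dotted) regions of each line. The curves start at 82 bp in WT and at 137 bp in N642H, and the medians lie at 105, 184, 194 and 287 bp.

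Summits of paired regions lay close together. The median gap between the WT and the N642H summit was 22 bp, 700 pairs (80.2%) were within 50 bp and 833 (95.4%) within 100 bp, with a largest gap of 854 bp. The order of the regions was similar as well. Spearman's rho over the 873 pairs was 0.74 for −log10 q, 0.69 for fold, 0.80 for the recovered number of tags at the summit and 0.59 for width, and within the strongest 291 pairs it was 0.73 for −log10 q. These describe 1 library a side, and both axes share local sequence and mappability. The median pair differed by 97 ranks of 873. Of the 10, 50 and 100 strongest WT regions, 5, 38 and 67 matched regions equally high in the N642H list.

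The pairs highest in both lines lay in KLF13, a Krüppel-like transcription factor gene (chromosome 15, 31365625 to 31366291, fold 76.9 in WT and 114 in N642H), and 41452 bp from TOB1, an antiproliferative gene (65.8 and 90.1). The next lay near ANAPC16, a subunit gene of the anaphase-promoting complex (43.3 and 77.9), in KIF3C, a kinesin gene (45.1 and 73.9), and 90811 bp from ZFP36L2, an mRNA decay factor gene (40.9 and 75.2). CCND3, which encodes cyclin D3, had 39.8 and 92.1, and the region 109437 bp from BTG1, an antiproliferative gene, had 70.8 and 79.1. The list of 10 is completed by sites 23194 bp from PRPS1, 166684 bp from NR3C1 itself and in SPEF2. Each of these 10 had the higher fold in the N642H list, as did 715 of the 873 pairs (81.9%). The median fold over all pairs was 8.997 in WT and 13.4 in N642H, and the median number of summit tags was 20 and 28. Neither folds nor summit tags were scaled between the lines for depth or fragment length, and longer fragments place more tags over a summit. The narrowest peaks were 82 bp in WT and 137 bp in N642H. How much of the tag difference goes with this was not tested, so tags do not measure the amount of bound receptor. The N642H to WT ratio of tags had a median of 1.40, with 90% of pairs between 0.865 and 2.46.

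A few pairs moved far from that middle. The region in CD55, which encodes a complement regulator, had 13 tags in WT and 92 in N642H (fold 6.04 and 41.3), and stood at rank 798 in WT and 78 in N642H among the 873 pairs. In CELF2, an RNA-binding protein gene prominent in T cells, the tags were 13 and 88 (fold 6.31 and 42.1). MAP3K5, a stress kinase gene (fold 6.45 and 28.6), RIPOR2 (4.72 and 20.7) and a site 3973 bp from OR10K2, an olfactory receptor gene (5.65 and 20.8), completed the 5 largest gains in rank. By ratio of tags, chosen after the values were seen, the largest were LDLRAD4, a gene of a TGF-beta signalling inhibitor, with 14 and 171 tags, and a region within 20 kb of TXNIP, a thioredoxin-binding protein gene and glucocorticoid target, with 15 and 162 tags (fold 9.28 and 92.1). SMOX, which encodes spermine oxidase, was near the strongest N642H region of all, with 44 tags in WT and 195 in N642H. PIK3R1, the gene of a regulatory PI3-kinase subunit, had 29 and 112. The 5 largest losses in rank were smaller in size. The region 28904 bp from GRAPL had fold 11.7 in WT and 4.17 in N642H with 28 and 22 tags. Those in AFAP1 (fold 6.998 and 2.93), ASPRV1 (10.7 and 5.52), DHRS12 (10.3 and 6.37) and PTPRD (10.3 and 6.30) had between 11 and 35 tags in N642H. The local background in the N642H library was high at AFAP1 and GRAPL, 11.3 and 4.52 against a genome background of 0.656.

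**Figure D3:**
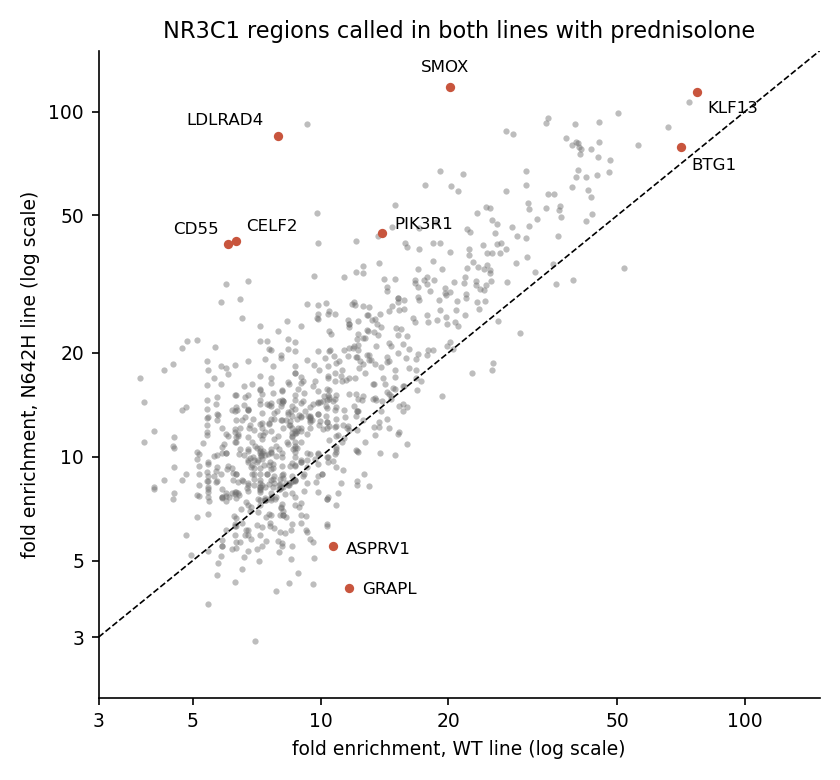
Fold enrichment in the WT (x) and N642H (y) line for the 873 one-to-one pairs, both axes log, with equal folds dashed and named regions in red. Most points, 715, lie above the line, CD55, CELF2 and LDLRAD4 sit far above it, and GRAPL and ASPRV1 below.

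The strongest N642H-only regions were as strong as many shared ones. The first lay in DLEU7 (chromosome 13, 50760734 to 50761204), a gene of the region deleted in lymphocytic leukaemias. It had fold 82.4 and rank 22 of 2888, and the nearest WT summit was 74181 bp away. The second lay 2700 bp from NF2, the merlin tumour suppressor gene (fold 80.3), with the nearest WT summit 605165 bp away. A region 11101 bp from IKZF1, which encodes the lymphoid transcription factor Ikaros, had fold 62.0, with the nearest WT summit 73331 bp away. IKZF1 also had a shared region in the gene or within 20 kb, with fold 34.0 in WT and 92.5 in N642H. TSC22D4, a relative of the glucocorticoid-induced leucine zipper gene, had an N642H-only region of fold 65.8. ANGPTL4, which encodes an inhibitor of lipoprotein lipase and is a known glucocorticoid target, had one of fold 56.7 whose summit was 17 bp from an end of the gene and 1036470 bp from any WT summit. The site 216669 bp from PTPRC, the gene of the CD45 phosphatase, had fold 52.9. Others lay in SOX5 (53.6), PCDH15 (55.7), UST (50.4), APBA1 (46.7) and BCL2L1, which encodes BCL-XL (41.7). Sites 14761 bp from NUP160 (44.2) and 37621 bp from FRG1 (47.5) followed. The 15 were completed by sites far from any gene, with PCDH9 nearest at 1041240 bp (47.8) and CCDC179 nearest at 783161 bp (39.5). None of the 15 had high local background, and their summit tags ran from 95 to 174. By number of tags, 143 N642H regions had at least 100 at the summit. Of these 74 were shared, with at least 14 WT tags and a median of 88 in their one-to-one pairs, and 69 were N642H-only, of which 54 had high background.

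WT-only regions were weak throughout, with a median fold of 6.85 and a highest of 10.9. The strongest had its summit 82 bp from an end of SKIC2, an RNA helicase gene of the SKI complex (chromosome 6, 31959209 to 31959332), with rank 393 of 994 and 19 tags. The next were 143638 bp from ERRFI1, a feedback inhibitor gene of EGF receptor signalling (fold 9.84), 152115 bp from METRNL (9.79), 16166 bp from AHI1 (9.21) and in ETV6, a haematopoietic transcription factor gene (9.86). Sites 304232 bp from KCNH8, 7321 bp from NDUFA10 and in SHLD1, UVRAG and ABHD12B had folds from 8.55 to 8.997. Of the 99, 17 (17.2%, 10.3 to 26.1) had an N642H summit within 10 kb, and 4 within 500 bp.

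STAT5B lists were set beside both classes. Without prednisolone they were 2267 (WT) and 4541 (N642H) regions long, and with it 766 and 444. An untreated N642H STAT5B region overlapped 592 of the 2001 N642H-only regions (29.6%, 27.6 to 31.6), 211 of the 887 shared N642H regions (23.8%, 21.0 to 26.7) and 28 of the 99 WT-only regions (28.3%, 19.7 to 38.2). With the N642H STAT5B list of prednisolone-treated cells, the treatment of the NR3C1 libraries, the shares were close, 159 N642H-only regions (7.95%, 6.80 to 9.22) and 65 shared ones (7.33%, 5.70 to 9.25). An untreated N642H but no untreated WT STAT5B region overlapped 362 N642H-only NR3C1 regions (18.1%, 16.4 to 19.8) and 84 shared ones (9.47%, 7.62 to 11.6). Regions of both untreated STAT5B lists overlapped 11.5% and 14.3%. Within the strongest bin of the N642H list, 59 of 168 N642H-only regions (35.1%, 27.9 to 42.8) and 82 of 409 shared ones (20.0%, 16.3 to 24.3) lay at untreated N642H STAT5B, while 9 (5.36%, 2.48 to 9.93) and 51 (12.5%, 9.43 to 16.1) lay at untreated WT STAT5B. In bins 2, 3 and 4 the untreated N642H STAT5B share of N642H-only regions was 25.3%, 30.02% and 28.2%. That of shared regions was 25.95%, 24.19% and 33.3%. In the weakest bin the shares were 31.3% and 34.3%. The intervals of both classes overlapped in every bin but the strongest. A WT STAT5B region of prednisolone-treated cells overlapped 135 N642H-only regions (6.75%, 5.69 to 7.94) and 126 shared ones (14.2%, 11.97 to 16.7). No STAT5B list met 1300 of the N642H-only regions (65.0%), against 617 of the shared N642H regions (69.6%) and 70.3% of all WT regions. The untreated NR3C1 lists held only the sites at PGAM1, of glycolysis, and at COX17, whose product carries copper to cytochrome oxidase. Both were shared with prednisolone, with fold 23.2 and 31.4 at PGAM1 and 16.9 and 29.0 at COX17 in WT and N642H.

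By position, 266 N642H-only regions (13.3%, 11.8 to 14.9) had a summit no more than 1 kb from the start or the end of a protein-coding gene, against 76 of the shared N642H regions (8.57%, 6.81 to 10.6) and 14 of the 99 WT-only regions (14.1%, 7.95 to 22.6). When the N642H list was shortened to its 994 strongest regions, the share of N642H-only regions at gene ends was 5.88%. The N642H-only regions at untreated N642H STAT5B were at gene ends in 157 of 592 cases (26.5%), and those away from it in 109 of 1409 (7.74%). Gene bodies away from the ends held 45.4% of N642H-only and 45.9% of shared N642H regions, and 17.6% and 17.5% were more than 100 kb from any protein-coding gene.

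Both lists covered all 23 chromosomes. The number of regions per chromosome ran in nearly the same order in both lists (Spearman's rho 0.94 over 23 chromosomes, which share size and gene content), and the N642H list was 2.91 times as long as the WT list on the median chromosome, from 1.67 times on chromosome 21 to 4.17 times on chromosome 16. The share of N642H regions that were N642H-only had a median of 69.5%. Its 95% interval excluded the overall 69.3% on 2 chromosomes, 21, with 19 of 40 regions (47.5%, 31.5 to 63.9), and 9, with 60 of 111 (54.1%, 44.3 to 63.6). With 23 such intervals, some can exclude the overall share by counting alone. All 51 WT regions of chromosome 9 were shared. The highest share was on chromosome 16, with 78 of 100 (78.0%, 68.6 to 85.7), where 24 regions had high background. Per Mb, chromosome 17 had the most N642H regions, 1.92, and the X chromosome the fewest, 0.469.

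**Figure D4:**
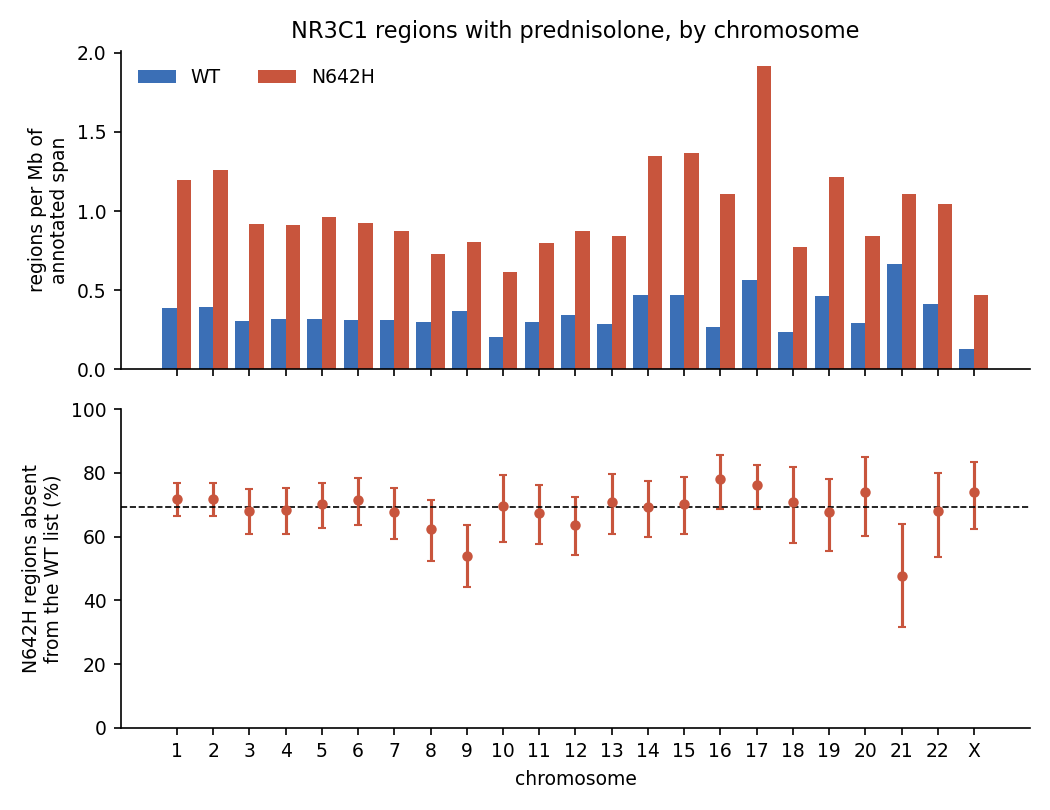
Top, NR3C1 regions per Mb of annotated span for each line by chromosome. Bottom, percent of N642H regions absent from the WT list, with exact 95% intervals and the overall 69.3% dashed. Chromosomes 21 (47.5%) and 9 (54.1%) lie below the dashed line with their whole interval, and with 23 intervals some can do so by counting alone.

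N642H-only regions were mostly alone. The nearest shared N642H summit was a median of 716846 bp away, and 113 of 2001 (5.65%, 4.68 to 6.75) had one within 10 kb. Another N642H region of either class lay within 10 kb of 399 N642H-only regions (19.9%, 18.2 to 21.8) and of 164 shared ones (18.5%, 16.0 to 21.2), and the former share was 17.8% without high-background regions. Among the WT regions, 10.1% had a WT neighbour that close, in a list with fewer regions. With the N642H list shortened to WT length the share of N642H-only regions was 9.63%. Chaining summits no more than 10 kb apart gave 6 groups of 3 or more regions in WT and 53 in N642H. Of the 53, 28 mixed shared and N642H-only regions, and 23 held N642H-only regions alone, 12 of these without a high-background region. A high-background region was in 11 of the 53. The largest, 13 regions over 22974 bp of chromosome 16 with CCNYL1B as nearest gene 191218 bp away and 11 regions over 15274 bp of the same chromosome with SHCBP1 nearest at 177150 bp, were all high-background with folds of 1.60 to 2.11. A group of 5 regions on chromosome 1, with H3-7 nearest at 682624 bp, was also all high-background (fold 1.65 to 1.78). Smaller groups of 4, 4 and 3 regions with the same nearest gene were high-background throughout as well. CLEC16A, which lies beside SOCS1, held 5 regions without high background, 1 of them shared (fold up to 19.1). Near CCDC200, 5 N642H-only regions all lay at untreated N642H STAT5B regions (fold up to 7.43), and 1 had high background. At SOCS1, a cytokine feedback inhibitor gene, shared regions at 30017 bp (fold 34.4 in WT, 95.5 in N642H) and 16638 bp (25.3 and 48.4) flanked an N642H-only region of 751 bp (fold 33.9) that lay at STAT5B regions of both lines.

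Genes were linked to a region when its summit lay in the gene or within 20 kb. Of 19331 protein-coding genes, 4.23% were linked to a WT region, 11.1% to an N642H region, 8.44% to an N642H-only region, 0.331% to 3 or more of these, and 7.21% (1393 genes) to an N642H-only region with no WT region. Both lines were linked at 3.85% of genes, 1.23% had a WT region and an N642H-only one, 0.554% had a WT-only region, and 0.378% had a WT region and no N642H region. A long gene is linked more readily, so the median gene span of each list is given. Over all genes it was 25.4 kb. All gene lists below were chosen with earlier results of these data known. Their shares beside those of all genes are therefore descriptions and do not test enrichment.

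Glucocorticoid response genes were linked in both lines for the most part. Of 37, 20 were linked in WT (54.1%), all of them also in N642H, which linked 24 (64.9%, median span 17.0 kb). Their shared sites had the higher fold in N642H at KLF9, a Krüppel-like factor gene (41.1 and 77.6), ZFP36L2 (50.1 and 99.3), DUSP1, a MAP kinase phosphatase gene (19.2 and 67.4), NFKBIA, the IκBα gene (9.64 and 33.4), and TSC22D3, the glucocorticoid-induced leucine zipper gene (11.4 and 33.2 at its strongest region within 20 kb). BTG2, an antiproliferative gene, had 10.4 in WT and 9.62 in N642H. An N642H-only region was linked to 14 members (37.8%, against 8.44% of all genes). The 20 with a WT region could not count among those with N642H-only and no WT regions. Members of that class were 4 (10.8%, against 7.21% of all genes), namely DUSP10 (fold 10.6), ZFP36L1 (5.51), BMF, a BH3-only gene (4.99), and NR3C1 itself (4.67). At −log10 q of at least 5 the count was 1 (6.52% of all genes), and with the N642H list shortened to WT length it was 1 (1.45% of all genes). At ZBTB16, a transcription factor gene induced by steroids, 3 regions were shared (strongest fold 28.2 and 46.3) and 1 weak one was N642H-only. PER1, a clock gene and common target, had no region within 50 kb in either list.

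Of 30 STAT5 targets, 6 were linked in WT and 15 in N642H (median span 6.68 kb), where all genes went from 4.23% to 11.1%. All 6 WT members, CD69, SOCS1, BCL2L1, BCL6, IL7R and CCND3, were among the 15. The other 9 (30.0%, against 7.21% of all genes) were PIM1, a survival kinase gene (fold 19.6), BCL2 (18.4), SOCS2 (13.7), PIM3 (11.4), PIM2 (10.5), DUSP6, an ERK phosphatase gene (9.85), CISH (7.78), MCL1 (7.22) and MYC (4.03). PIM1's region was at STAT5B regions of N642H cells with and without prednisolone. That of SOCS2 lay at no untreated or prednisolone N642H STAT5B region. With the N642H list shortened to WT length the count was 4, against 1.45% of all genes.

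The BCL2 family had 2 of 20 members linked in WT and 7 in N642H (35.0%, median span 16.9 kb), of which 5 had no WT region, against 7.21% of all genes. The 5 became 2 with lists of equal length (1.45% of all genes) and with a 5 kb limit (5.15%). Besides the survival genes BCL2 and MCL1 these were the pro-apoptotic PMAIP1 (fold 12.8), BID (10.3) and BMF. BCL2L11, the gene of the pro-apoptotic BIM, had a shared internal region (10.5 and 26.4) and an N642H-only one 244 bp outside the gene (6.37) that lay at untreated N642H STAT5B. In the JAK-STAT list 5 of 20 were linked in WT and 8 in N642H (median span 49.6 kb), where IL2RG, the common gamma chain gene, was among those added (fold 8.92). A site linked to both STAT5A and STAT5B had fold 20.5 in each line, and IL7R had 14.9 in WT and 53.8 in N642H.

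T-lineage genes had 10 of 36 members linked in WT (27.8%) and 23 in N642H (63.9%, median span 34.0 kb). The 13 with N642H-only and no WT regions (36.1%, against 7.21% of all genes) included LEF1, a Wnt pathway transcription factor gene (fold 11.5), RAG1 (10.1, the region at the RAG2 promoter), PTCRA, the pre-T-cell receptor alpha gene (9.01), CD8A (8.07), BCL11B (7.31), CD247, the CD3 zeta gene (6.77), and the neighbours CD3D and CD3G (6.47 from 1 region). The folds of all 13 ran from 5.47 to 11.5, around the median of 7.24 over all N642H-only regions, and with lists of equal length the count was 2, against 1.45% of all genes. Strong shared regions lay at IKZF1 (34.0 and 92.5) and CD7, a T-cell surface glycoprotein gene (27.3 and 58.8). Markers of other blood cells had 1 of 18 linked in WT (5.56%) and 3 in N642H (16.7%, median span 9.40 kb). All genes were linked at 4.23% and 11.1%. In N642H, KLRD1, a natural killer receptor gene, had fold 15.2 and CD79A, a B-cell receptor component gene, 6.19. None of 16 non-blood genes was linked in either line (median span 10.8 kb, shorter than the 25.4 kb over all genes). Steroid-handling genes had 3 of 19 linked in each line. The 24 highly expressed promoters were listed as places where ChIP background gathers. Of them, 6 were linked in WT and 8 in N642H (33.3%, median span 5.47 kb), with DRAP1 (10.2) among those added. Over all genes the shares were 4.23% and 11.1%. The list includes PGAM1 and COX17, the sites of the untreated NR3C1 lists, and both were linked in each line. Its members, like those of the other lists, were chosen with earlier results of these data known, so its shares cannot measure background.

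**Figure D5:**
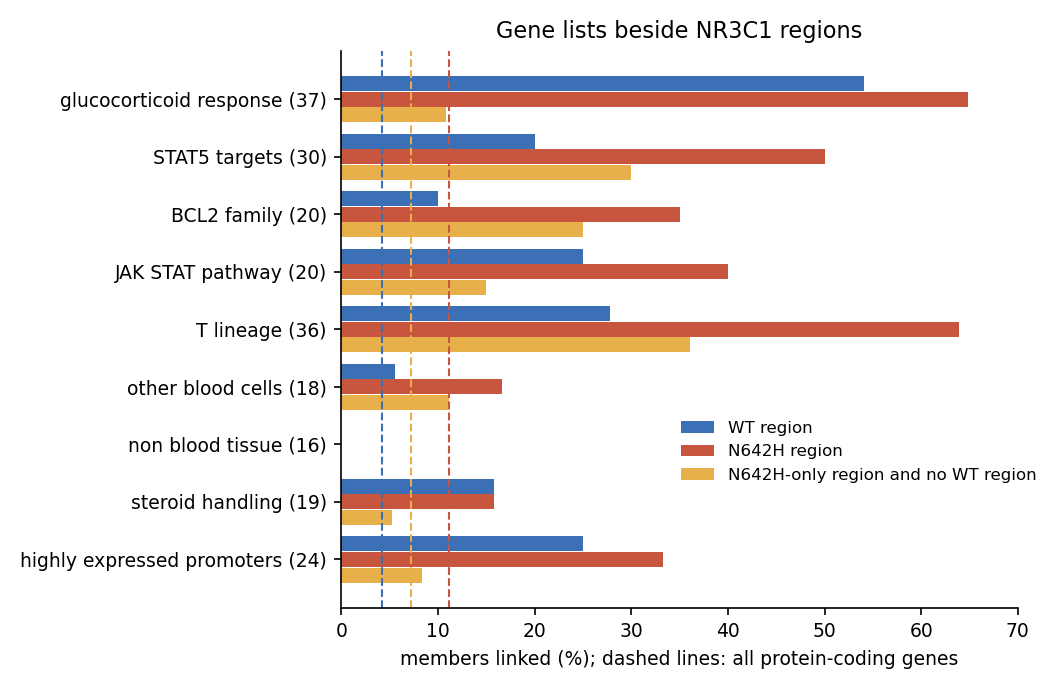
Percent of each gene list linked to a WT region, an N642H region, or an N642H-only region with no WT region (number of members in brackets), with the same percent over all 19331 genes as dashed lines at 4.23, 11.1 and 7.21. T-lineage genes (36.1%) and STAT5 targets (30.0%) have the longest yellow bars, glucocorticoid response genes (10.8%) a short one. A gene with a WT region cannot enter the yellow class, and 20 of the 37 glucocorticoid response genes had one. The lists were chosen with earlier results of these data known, so the bars do not test enrichment.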

How the data were processed

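Of the 12 samples, 8 were ChIP libraries with 1 deposited peak list each and 4 were input libraries, which were not analysed here on their own. BWA, MACS2, deepTools and the build hg38 are named per the submitters' processing notes, and their versions, settings and input matching are not given in the sources used here. The authors deposited, peak by peak, the span, a whole-number score, a fold enrichment (a ratio over local background), the −log10 p-value and the −log10 q-value, and the summit offset. These are the authors' own values per peak. They were used to describe and rank regions within a list and to work out summit tags. Values of paired regions were also set side by side between the lines. For this the deposited folds were taken as they stand, without scaling between the libraries for depth or fragment length. Peaks had been called per library, and no list held peaks that overlapped each other. Coordinates are on hg38, counted from 1.

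Overlap of at least 1 bp made a region shared, and the 12 WT and 34 N642H regions outside chromosomes 1 to 22 and X were left out. Summit tags and their local background were worked out from the fold (pseudocount 1) and the −log10 p under the Poisson formula of MACS2. Their step was 0.894 in the WT and 1 in the N642H library, and summit tags ran from 8 to 162 and from 7 to 274. On simulated peaks the tags were recovered in 297 of 297 and 295 of 295 regions, and planted overlaps were found in 20 of 20 lists. Genes came from a RefSeq table of GRCh38.p14 (19331 protein-coding genes, with unnamed LOC models left out), and promoters from a RefSeq table with 21616 windows of 15357 genes. Python 3.11.15, pandas 2.3.3 and scipy 1.17.1 were used.

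The members and gene lists were chosen with earlier results of these data known. Named were the nearest genes of the 10 strongest pairs, the 15 strongest N642H-only and 10 strongest WT-only regions, the 5 largest gains and losses of rank, the 5 largest clusters and the untreated NR3C1 regions, up to 8 line-specific members of each list, and 14 genes in all cases. Some genes that this rule names are not reported here. Values of linked genes belong to the linked region with the highest −log10 q. With 1 library a group no model across samples and no p-value was computed. Alternatives were other overlap, strength and distance limits, lists of equal length, and leaving out high-background regions.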

Additional observations from a re-analysis of the deposited data

Results flagged for a closer look

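Regions outside chromosomes 1 to 22 and X were not part of any comparison and still carried called signal. There were 12 in the WT list, 1 of them on the Y chromosome, with folds of 7.19 to 21.8 over 10 sequences. In the N642H list there were 34 over 19 sequences, with folds of 1.51 to 25.4. The untreated NR3C1 lists held 1 such region in WT and 0 in N642H.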

How the results depend on the processing

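No paired analysis was possible because each group held 1 library, and for the same reason no library could be left out. Of 73 alternative values for the main results, 50 stayed within the 95% interval of a share or median, within 0.05 for rho or within 1.5 times for a count of genes, and 23 did not. The share of WT regions that were shared (90.04%) was 84.9% with summits within 100 bp, 92.5% at −log10 q of at least 5 and 63.2% with lists of equal length, where the N642H share (30.7%) was 62.4%. Rank agreement (0.74) was 0.69 by fold and 0.80 by tags. The median width of N642H-only regions (194 bp) was 202 bp at −log10 q of at least 5 and 270.5 bp with equal lengths. Their share at untreated N642H STAT5B (29.6%) was 25.8% at −log10 q of at least 5, 26.2% at fold of at least 5 and 24.0% with the STAT5B summit within 100 bp. Their share with a neighbour (19.9%) was 18.1%, 16.9%, 9.63% and 17.8% at −log10 q of at least 5, at fold of at least 5, with equal lengths and without high-background regions, and 14.2% and 29.4% with 5 and 25 kb. Their share at gene ends (13.3%) was 11.4% at −log10 q of at least 5, 5.88% with equal lengths, 11.2% with 500 bp and 17.0% with 2 kb. Genes with an N642H-only and no WT region (1393) numbered 280 with equal lengths and 2119 with a 50 kb limit. Glucocorticoid response members (4) numbered 1, 2 and 1 at −log10 q of at least 5, at fold of at least 5 and with equal lengths. STAT5 targets (9) numbered 4, BCL2 family members (5) 2 and T-lineage members (13) 2 with equal lengths, and the BCL2 family 2 with a 5 kb limit. Equal lengths and stricter limits leave fewer N642H regions by construction. In the other cases the cause was not tested. The regions with fewest summit tags had 8 in WT and 7 in N642H, and what depth does to the weak end of the lists was not tested.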
